A study of Homo sapiens with 6 samples.

Results

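The 9 genes described here encode 3 groups of transcriptional cyclin-dependent kinases and their partners: the kinases CDK12 and CDK13 with cyclin K (CCNK), the kinase CDK9 with cyclins T1 and T2 (CCNT1 and CCNT2), and the kinase CDK7 with cyclin H (CCNH) and the assembly factor MAT1 (MNAT1). They were chosen by name and matched to their Ensembl identifiers, and all 9 were found among 62696 gene entries and were abundant enough to be tested. Their RNA was measured by bulk RNA sequencing in C4-2, an established human line of castration-resistant prostate cancer, grown in RPMI medium with 10% serum and no drug treatment. The comparison was between 3 libraries of the vector control line, whose genotype is labelled WT (vector libraries 1 to 3), and 3 libraries of a line labelled CDK12 knockout and made with CRISPR-Cas9 (knockout libraries 1 to 3). The labels name neither the guide nor whether a line is 1 clone, and other differences between the lines cannot be told apart from the edit. Nothing in them makes the replicates separate cultures, so p-values reflect the spread among these 6 libraries, which may be technical. In bulk RNA, fewer cells with a transcript and less of it per cell cannot be told apart.

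Transcription by RNA polymerase II is paced by phosphorylation of the C-terminal repeats of its largest subunit. CDK7, with cyclin H and MAT1, forms the CDK-activating kinase module of the initiation factor TFIIH, which phosphorylates the repeats at promoters and also activates other CDKs. CDK9 with a T-type cyclin forms P-TEFb, which releases polymerase paused near promoters. CDK12 and CDK13 each bind cyclin K, act on elongating polymerase, and are known for sustaining full-length transcripts, those of DNA repair genes among them.

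Each library had 24660798 to 30732841 reads, with 16617644 to 21590817 assigned to genes. Knockout library 2 stood apart: its scaling factor was 0.737 against 1.04 to 1.10 in the other 5, and its log2 levels correlated with theirs across genes at 0.916 to 0.950, where the other 5 reached 0.977 to 0.990 among themselves. Genes with long transcripts were low in it. For genes whose longest annotated transcript has 8000 bases or more, the median log2 shift from the vector mean was -0.49 in knockout library 2 and -0.15 in each of knockout libraries 1 and 3, and for those under 2500 bases it was 0.51 in knockout library 2 and 0.12 and 0.15 in the others. Results are therefore given with and without this library, and the part of this length trend in any result was not tested. All 9 luminal prostate markers examined were present in every library, with KLK3 at 4310 to 5850 library-scaled counts (CPM). Of 10 markers of other cell types, 3 were at 0 in all 6 libraries: TP63 (basal), PECAM1 (endothelial) and DCN (stromal). The leukocyte marker PTPRC was at 0 in 5 libraries and at 0.0512 CPM in the other, and the basal marker KRT5 was at most 0.112 CPM. Reads were found in every library for KRT14 (basal, 0.283 to 1.7 CPM), SYP (neuroendocrine, 2.09 to 6.67 CPM), COL1A1 and VIM. The stromal marker COL1A1 was at 19.5 to 21.1 CPM in the vector and 21.1 to 28.4 CPM in the knockout libraries (log2 0.33, edgeR adjusted p = 0.249). VIM, a mesenchymal marker, was at 4.42 to 5.49 and 8.27 to 14.3 CPM (log2 1.16, edgeR adjusted p = 0.106, and 0.92, edgeR adjusted p = 0.00148, without knockout library 2). These unstranded counts left out 64.2% to 71.5% of its summed stranded reads (described below) in the vector libraries. In knockout libraries 1 to 3 they left out 66.9%, 39.4% and 67.7%. The summed counts gave VIM 12.0 to 14.5 and 19.6 to 26.4 CPM (log2 0.78, edgeR adjusted p = 0.127, and 0.86, edgeR adjusted p = 1.69e-05, without knockout library 2). CHGA, a neuroendocrine marker, was at 7.32 CPM in vector library 1, at 0.168 and 0.0549 CPM in vector libraries 2 and 3, and at 0 in the knockout libraries. Summed over the 10 markers the level was 29.4 to 35.4 CPM in the vector and 35.6 to 50.4 CPM in the knockout libraries, and its part in any result was not tested.

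None of the 9 genes passed the test with all libraries. In edgeR's quasi-likelihood test with Benjamini-Hochberg adjustment over all tested genes, 0 of 9 passed an adjusted p of 0.05, against 0.596% of all 15783 tested genes. The count at an unadjusted p under 0.05 was also 0 of 9, against 21.7% of all genes. DESeq2 and limma-voom called 0 of 9 each, against 6.21% and 0.665% of all genes. Without knockout library 2, 1 of 9 passed, CCNK in the lower direction, against 19.1% of 16339 tested genes (8.88% lower), and 3 of 9 had an unadjusted p under 0.05, against 31.7%. The groups did not overlap for 4 of 9 genes (44.4%), which is near the 39.4% of all tested genes: CDK9 and CCNH were higher (20.4% of all genes were), and CCNK and CCNT1 lower (19.0%), in all 3 knockout libraries. Without knockout library 2 this held for 5 of 9, CDK7 being the addition, against 47.2% of all genes (24.5% higher, 22.8% lower). The median log2 fold change of the 9 genes was 0.02 with all libraries and 0.08 without knockout library 2, beside 0.00 and -0.01 over all tested genes.

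**Figure D1:**
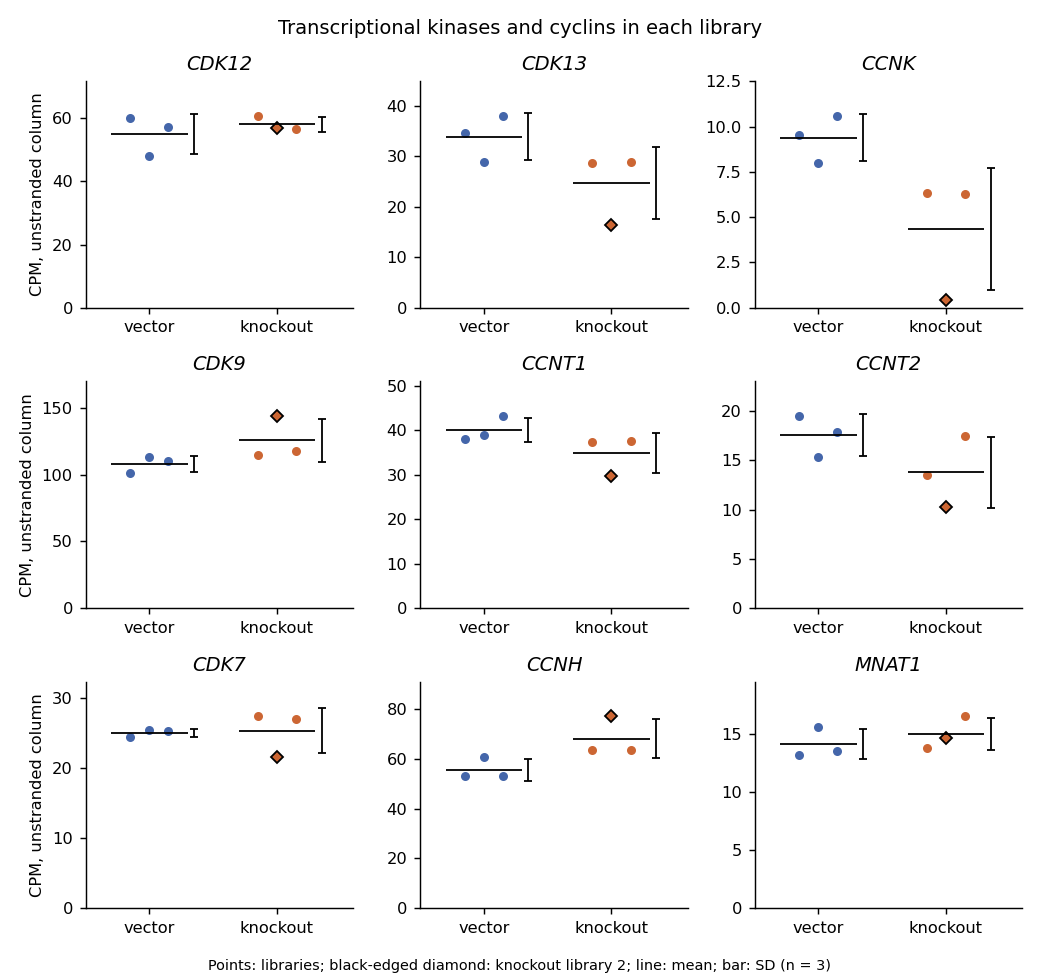
Normalised level (CPM from the unstranded counts, linear axes from 0) of each of the 9 genes, with a point for each library, a line at the group mean, a bar for the SD (n = 3) and a black-edged diamond for knockout library 2. That library is the lowest of the 6 for CDK13, CCNK, CCNT1, CCNT2 and CDK7 and the highest for CDK9 and CCNH.

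CDK12, the edited kinase gene (ENSG00000167258.15, chromosome 17, 39461511 to 39564907, plus strand, GRCh38 coordinates of GENCODE 29 here and below), had overlapping RNA levels in the vector and knockout libraries. It stood at 60.2, 48.0 and 57.1 CPM in vector libraries 1 to 3 and at 60.8, 56.9 and 56.5 CPM in knockout libraries 1 to 3. Vector library 2 was the lowest of the 6, the groups overlapped, and knockout library 2 lay with the other knockout libraries. The log2 fold change was 0.08 with a 95% interval of -0.22 to 0.37 (edgeR adjusted p = 0.709), and without knockout library 2 it was 0.08 with an interval of -0.12 to 0.28 (edgeR adjusted p = 0.600). Both intervals hold changes of either sign, and the largest fall that the first allows is its lower bound, -0.22. No annotated gene shares exon bases with CDK12, and its log2 fold change on the stranded counts was 0.05. The series speaks of a knockdown in its title and of a knockout in its design text and sample labels. A count over the whole gene does not show whether the reading frame is intact, so it does not check the knockout label, and no lower CDK12 RNA was seen of the kind that the word knockdown names.

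CDK13, the closest relative of CDK12 and the other kinase that binds cyclin K (ENSG00000065883.18, chromosome 7, 39949646 to 40099580, plus strand), was lower on average without passing the test. Its level was 34.6, 28.8 and 38.0 CPM in the vector and 28.7, 16.4 and 28.9 CPM in the knockout libraries. Knockout library 2 was far below the rest, while knockout libraries 1 and 3 lay next to vector library 2, so the groups overlapped. The log2 fold change was -0.45 (95% interval -1.01 to 0.11, edgeR adjusted p = 0.281) with all libraries and -0.24 (edgeR adjusted p = 0.155) without knockout library 2. The longest CDK13 transcript has 10135 bases, in the class that was low in knockout library 2, and that of CDK12 has 8336 bases.

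The ratio of CDK12 to CDK13 was computed within each library, where the library's scaling cancels. It was 1.74, 1.67 and 1.51 in the vector libraries and 2.12, 3.47 and 1.95 in the knockout libraries. All 3 knockout libraries lay above all 3 vector libraries, knockout library 2 most of all. The difference in log2 ratio was 0.57, and 0.32 without knockout library 2. The 2-sided exact permutation p was 0.10, the smallest that 3 libraries against 3 allow, and 0.20 after Benjamini-Hochberg adjustment over 6 ratios, so this design could not pass the threshold. These ratios compare libraries and are not corrected for the genes' lengths.

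CCNK encodes cyclin K, the partner that CDK12 and CDK13 need for kinase activity (ENSG00000090061.17, chromosome 14, 99481169 to 99535044, plus strand). It was the 1 gene of the 9 to pass the test without knockout library 2, and its values depended on how reads in shared exons were counted. In the unstranded counts it stood at 9.52, 8.01 and 10.6 CPM in the vector libraries and at 6.33, 0.44 and 6.26 CPM in the knockout libraries. All 3 knockout libraries were below all 3 vector libraries. Knockout library 2 held 7 reads (95% Poisson interval 2.81 to 14.4, counting error only), against 121 to 193 in the other 5. The log2 fold change was -1.09 (95% interval -2.74 to 0.55, edgeR adjusted p = 0.347) with all libraries. Leaving that library out, CCNK passed the test and fell by 0.58 in log2 (95% interval -0.94 to -0.22, edgeR adjusted p = 0.0237).

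These counts cover only part of the gene. The last exon of CCDC85C, a coiled-coil protein gene on the minus strand (99500180 to 99604026), has 15156 bases and runs from 19011 to 34166 bases past the CCNK start, over 4 of the 11 exon blocks of CCNK. It covers 4893 of the 8220 exon bases of CCNK (59.5%) and 1329 of its 1757 coding bases (75.6%). The other 7 exon blocks lie wholly outside the exons of CCDC85C, and 6 of them end within 14460 bases of the CCNK start.

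A read in an exon that 2 genes share on opposite strands is left out of the unstranded column. Each stranded column counts it for 1 of the 2 genes, by the strand that the column assumes. The 2 columns assume opposite strands, so their sum counts such a read in full for both genes. In the vector libraries 87.4% to 89.8% of the CCNK reads in the summed stranded columns were absent from the unstranded column. This share was 92.3%, 99.6% and 92.1% in knockout libraries 1 to 3. Only 2.22% of tested genes had as large a share in the vector libraries as CCNK. The stranded columns had sums within a ratio of 1.02 to 1.04 of each other in every library, which is the pattern of a protocol that does not keep strand, so reads in the shared exons can come from either gene.

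The CCNK reads found only in the stranded columns stood at 60.6, 60.4 and 62.5 CPM in the vector and 64.1, 88.4 and 61.5 CPM in the knockout libraries, highest in knockout library 2. Counted with those reads, CCNK had overlapping groups. The sum of the stranded columns gave 68.7, 67.2 and 71.5 CPM in the vector and 69.4, 88.8 and 66.8 CPM in the knockout libraries, a CPM scaled to the total of these columns. Knockout library 2, the lowest in the unstranded counts, was the highest here, and the groups overlapped. The log2 fold change was 0.12 (95% interval -0.21 to 0.44, edgeR adjusted p = 0.586) with all libraries and -0.03 (95% interval -0.17 to 0.12, edgeR adjusted p = 0.839) without knockout library 2. The call thus ended and its value moved to near 0. With these counts 0 of the 9 genes passed with all libraries, where 0.436% of all tested genes did, and 0 of 9 without knockout library 2, where 20.6% did. For each read in its own exons CCNK had 7.48, 8.85 and 6.93 shared reads in the vector libraries and 12.0, 243 and 11.6 in the knockout libraries. The groups did not overlap in this ratio of shared to own reads, and knockout library 2 was the highest by far. Which of CCNK and CCDC85C the shared reads came from cannot be told apart.

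**Figure D2:**
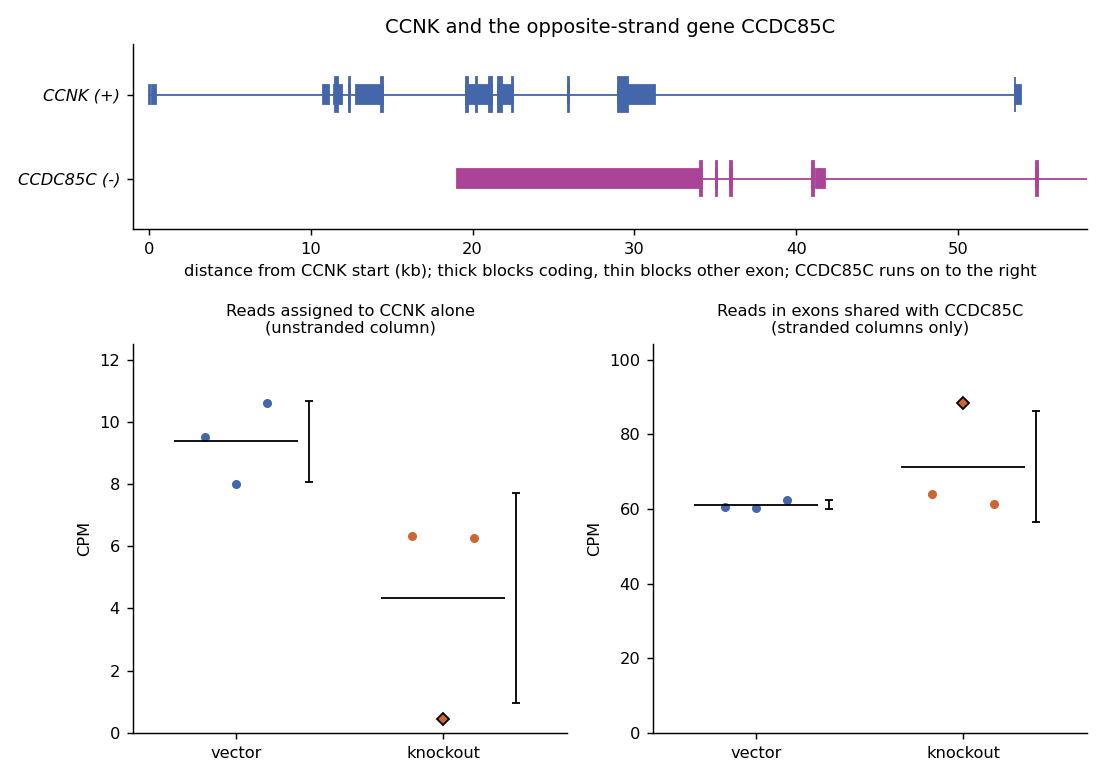
Exons of CCNK and CCDC85C by distance from the CCNK start in kilobases, and below them the CCNK reads of each library in CPM, from the unstranded column (left) and from the reads found only in the stranded columns (right), with group mean, SD (n = 3) and a diamond for knockout library 2. The knockout libraries lie below the vector libraries on the left (0.44 to 6.33 against 8.01 to 10.6) and overlap them on the right (61.5 to 88.4 against 60.4 to 62.5).

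CCDC85C itself stood at 158, 173 and 160 CPM in the vector and 137, 83.9 and 130 CPM in the knockout libraries (unstranded counts). It was lower in all 3 knockout libraries. Its log2 fold change was -0.49 with all libraries (edgeR adjusted p = 0.223), and it fell by 0.30 without knockout library 2 (edgeR adjusted p = 0.00419). On the summed stranded columns without knockout library 2 the value was -0.15 (edgeR adjusted p = 0.0925), so this call also ended. All 3 knockout libraries were still lower there, at 269, 223 and 250 CPM against 286, 297 and 281 CPM in the vector libraries. That sum includes any CCNK reads in the shared exons.

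The ratio of CCNK to the sum of its kinases CDK12 and CDK13 carried the same dependence. From the unstranded counts it was 0.10, 0.104 and 0.111 in the vector libraries and 0.0707, 0.006 and 0.0733 in the knockout libraries, a difference of -1.74 in log2 and -0.55 without knockout library 2 (2-sided exact permutation p = 0.10, adjusted over 6 ratios 0.20). All 3 knockout libraries lay below the vector libraries. From the summed columns it was 0.852, 1.03 and 0.884 against 0.921, 1.46 and 0.924, a difference of 0.23 (exact permutation p = 0.50), and the groups overlapped.

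In P-TEFb, the kinase gene was higher and a cyclin gene lower in every knockout library, and neither passed the test. CDK9 (ENSG00000136807.14, chromosome 9, 127785679 to 127790787, plus strand), the catalytic subunit, was at 101, 113 and 110 CPM in the vector and 115, 144 and 118 CPM in the knockout libraries. The groups did not overlap, the gap between vector library 2 and knockout library 1 was small, and knockout library 2 was the highest. Its log2 fold change was 0.22 (95% interval -0.10 to 0.53, edgeR adjusted p = 0.330) and 0.11 (edgeR adjusted p = 0.327) without knockout library 2.

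CCNT1, the cyclin of most P-TEFb in many cell types (ENSG00000129315.11, chromosome 12, 48688458 to 48716998, minus strand), was at 38.0, 39.0 and 43.2 CPM in the vector and 37.4, 29.7 and 37.5 CPM in the knockout libraries. Knockout libraries 1 and 3 lay just below vector library 1, and knockout library 2 well below. In log2 the change was -0.20 (95% interval -0.53 to 0.13, edgeR adjusted p = 0.376) and -0.10 (edgeR adjusted p = 0.489) without knockout library 2. CCNT2, the alternative cyclin (ENSG00000082258.13, chromosome 2, 134918235 to 134959342, plus strand), was at 19.5, 15.3 and 17.9 CPM against 13.5, 10.3 and 17.5 CPM. Knockout library 3 lay among the vector libraries, so the groups overlapped. Its log2 fold change was -0.35 (95% interval -0.86 to 0.17, edgeR adjusted p = 0.341), and -0.19 (edgeR adjusted p = 0.391) without knockout library 2.

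The ratio of CDK9 to its cyclins, CCNT1 and CCNT2 added together, was 1.75, 2.08 and 1.81 in the vector libraries and 2.26, 3.59 and 2.15 in the knockout libraries. It was higher in all 3 knockout libraries. The log2 difference was 0.47, and 0.23 without knockout library 2 (2-sided exact permutation p = 0.10, adjusted 0.20). The longest transcript of CDK9 has 2463 bases and those of CCNT1 and CCNT2 have 6973 and 6917, so they fall in different length classes. Over all genes of 5000 to 8000 bases the median log2 shift was -0.10, -0.40 and -0.11 in knockout libraries 1 to 3, beside the rises for genes under 2500 bases given above. The ratio of CCNT1 to CCNT2, genes of like transcript length, was 1.95, 2.55 and 2.42 in the vector libraries and 2.77, 2.88 and 2.14 in the knockout libraries. These groups overlapped (log2 difference 0.17, exact permutation p = 0.50, and 0.09 without knockout library 2).

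**Figure D3:**
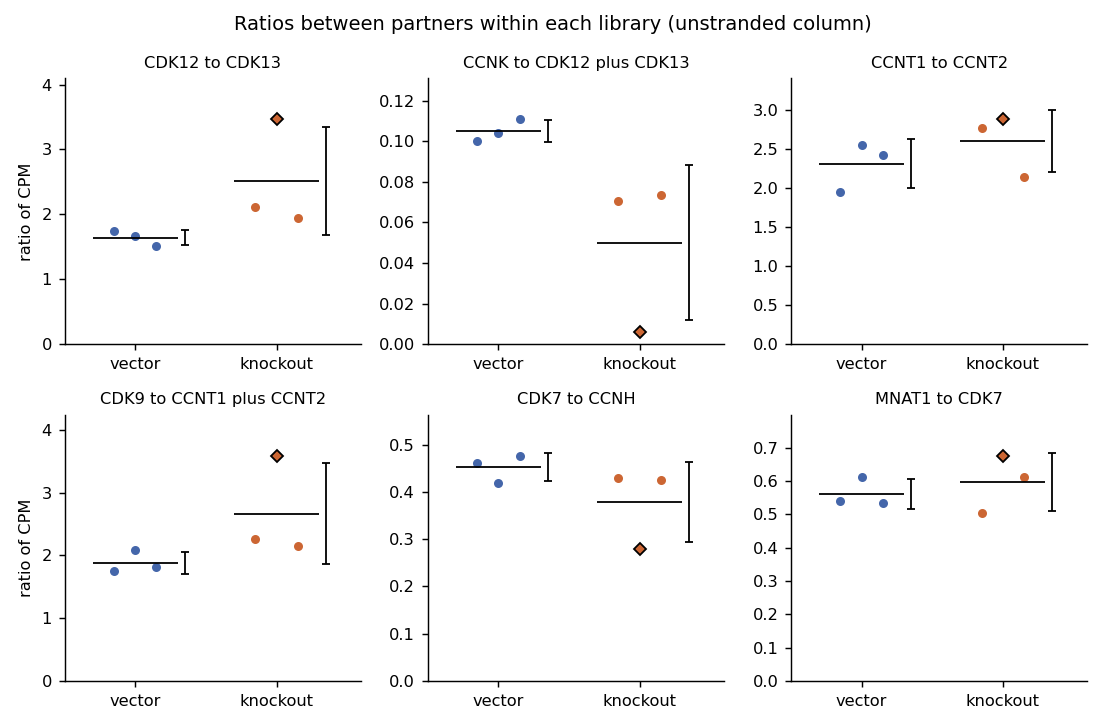
Ratio of CPM between partners in each library from the unstranded counts (linear axes from 0), with group mean, SD (n = 3) and a diamond for knockout library 2. CDK12 to CDK13 and CDK9 to its T cyclins are higher, and CCNK to CDK12 plus CDK13 lower, in all 3 knockout libraries, and the groups overlap in the other ratios.

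In the CDK-activating kinase, the groups overlapped for CDK7 and MNAT1, and CCNH was higher in the knockout libraries in the unstranded counts. CDK7, its catalytic subunit (ENSG00000134058.12, chromosome 5, 69234795 to 69277430, plus strand), was at 24.4, 25.4 and 25.3 CPM in the vector and 27.4, 21.6 and 27.0 CPM in the knockout libraries. Knockout libraries 1 and 3 lay above, and knockout library 2 below, all vector libraries. CDK7 had a log2 fold change of 0.02 (95% interval -0.31 to 0.34, edgeR adjusted p = 0.944) with all libraries and 0.11 (edgeR adjusted p = 0.477) without knockout library 2.

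CCNH, the cyclin of CDK7 (ENSG00000134480.16, chromosome 5, 87318416 to 87413019, minus strand), was at 53.0, 60.7 and 53.0 CPM in the vector and 63.6, 77.0 and 63.4 CPM in the knockout libraries. All 3 knockout libraries were above vector library 2, the highest of its group. In log2 the change was 0.29 (95% interval -0.01 to 0.60, edgeR adjusted p = 0.240), and 0.19 (edgeR adjusted p = 0.126) without knockout library 2. CCNH shares exon bases with 2 genes on the plus strand: 771 with RASA1, which encodes a Ras GTPase-activating protein, and 585 with ENSG00000285190, an antisense gene at the 5′ end of CCNH. In the vector libraries 33.7% of its summed stranded reads were absent from the unstranded column. For ENSG00000285190 the reads seen only in the stranded columns were 391, 329 and 389 in the vector libraries and 362, 60 and 281 in the knockout libraries, lowest in knockout library 2.

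With the summed stranded columns, which include any reads of RASA1 and ENSG00000285190 in the shared exons, CCNH overlapped between groups. It was at 69.6, 73.5 and 70.6 CPM in the vector and 76.8, 77.7 and 73.4 CPM in the knockout libraries. Knockout library 3 then lay just under vector library 2, so the groups touched. The log2 fold change was 0.09 (edgeR adjusted p = 0.547) with all libraries and 0.07 (edgeR adjusted p = 0.514) without knockout library 2, less than the 0.29 and 0.19 of the unstranded counts. The ratio of CDK7 to CCNH had a log2 difference of -0.28 from the unstranded counts (exact permutation p = 0.30) and -0.11 from the summed columns (exact permutation p = 0.90). Without knockout library 2 these were -0.08 and 0.03.

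MNAT1, which stabilises the pairing of CDK7 with cyclin H (ENSG00000020426.11, chromosome 14, 60734742 to 60969953, plus strand), was at 13.2, 15.6 and 13.5 CPM in the vector and 13.8, 14.6 and 16.5 CPM in the knockout libraries. The groups overlapped and no library stood apart. In log2 the change was 0.09 (95% interval -0.26 to 0.44, edgeR adjusted p = 0.710), and 0.10 (edgeR adjusted p = 0.660) without knockout library 2. With the summed stranded columns the groups did not overlap for 3 of the 9 genes (33.3%), CDK9 higher and CDK13 and CCNT1 lower, against 40.3% of all tested genes, and without knockout library 2 for 4 of 9, with CDK7 added, against 48.0%.

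**Figure D4:**
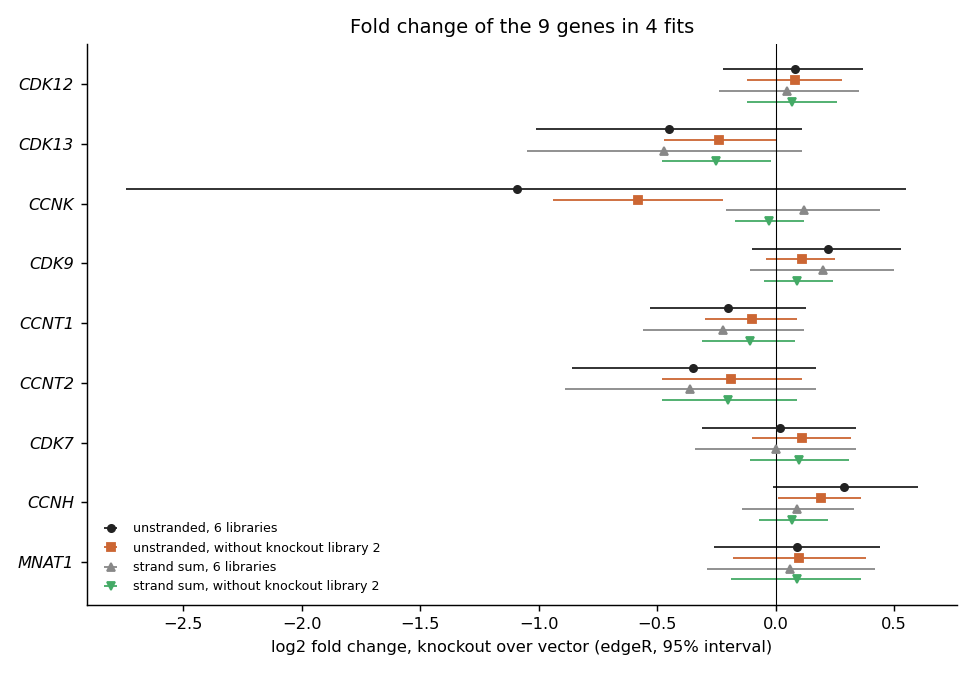
Log2 fold change (knockout over vector) of the 9 genes with 95% intervals from edgeR, from the unstranded counts and the summed stranded columns, with and without knockout library 2. For CCNK the value is -1.09 and -0.58 in the unstranded counts and 0.12 and -0.03 in the summed columns, and intervals narrow for most genes when knockout library 2 is left out.

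Compared per kilobase of annotated exon, the genes differed in level far more than the groups did. In the vector libraries CDK9 was the highest at 36.0 ± 2.16 CPM per kilobase (SD, n = 3 for each gene here), followed by CDK7 at 10.4 ± 0.225 and CCNH at 9.15 ± 0.734. CCNT1 was at 5.43 ± 0.377, CDK12 at 4.31 ± 0.497 and MNAT1 at 3.64 ± 0.340. The lowest were CCNT2 at 1.93 ± 0.234, CDK13 at 1.35 ± 0.185 and CCNK at 1.14 ± 0.159. These unstranded counts leave out reads in shared exons, yet CCNK was divided by all its 8220 exon bases. Only 3327 of those bases lie outside the exons of CCDC85C, so the rank of CCNK as the lowest rests on this choice. The value of CCNH, which also shares exons, is affected likewise. The ranges of the neighbours CDK12 and MNAT1, and of CDK13 and CCNK, overlapped, while the other neighbours in this order did not overlap. In the knockout libraries CDK9 was again the highest, at 41.9 ± 5.24 CPM per kilobase.

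This order depended on the length and the column used. Over the longest annotated transcript in place of all exon bases, CCNH at 23.2 ± 1.86 came above CDK7 at 17.2 ± 0.374 CPM per kilobase in the vector libraries, CDK12 at 6.61 ± 0.762 came above CCNT1 at 5.75 ± 0.399, and CDK13 at 3.33 ± 0.459 came above CCNT2 at 2.54 ± 0.307. With the summed stranded columns over all exon bases, CCNK went from the lowest of the 9 to 8.41 ± 0.264 CPM per kilobase, next to CDK7 at 8.82 ± 0.200, a value that includes any CCDC85C reads in the shared exons.

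Around these kinases, 57 genes of 5 lists were examined: other transcriptional CDKs with their partners, regulators of P-TEFb, the TFIIH core, phosphatases and readers of the polymerase repeats, and substrates of the kinases. Of the 54 that could be tested, 0 passed the edgeR test over all 6 libraries, against 0.596% of all tested genes. An unadjusted p under 0.05 was seen for 6 of 54, against 21.7% of all genes. The calls were 1 with DESeq2, against 6.21%, and 0 with limma-voom, against 0.665%. Their median log2 fold change was -0.05. Without knockout library 2, 2 of 54 were higher and 8 lower, with a median of -0.05, against 10.2% and 8.88% of all tested genes. Of the 10, MED13L and AFF4 were not called by DESeq2 or limma-voom without that library (adjusted p = 0.0665 and 0.0644 in DESeq2, 0.0766 and 0.0564 in limma-voom), nor CTDSPL and MLLT3 by DESeq2 (adjusted p = 0.0602 and 0.0520). On the summed stranded columns without that library, 3 of 56 were higher and 9 lower, against 10.8% and 9.79% of all tested genes.

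Among the kinase substrates, 2 of 11 tested genes fell without knockout library 2 and 0 rose, against 8.88% and 10.2% of all tested genes. POLR2A encodes the largest subunit of RNA polymerase II, which carries the phosphorylated repeats. It was at 75.8, 64.0 and 78.4 CPM in the vector and 56.8, 12.5 and 42.2 CPM in the knockout libraries, lower in all 3 and lowest in knockout library 2. Its log2 fold change was -0.96 with all libraries (edgeR adjusted p = 0.261), and it fell by 0.56 without knockout library 2 (edgeR adjusted p = 0.00158). SUPT6H, an elongation factor and histone chaperone, was at 175, 176 and 167 CPM against 153, 205 and 147 CPM. Knockout library 2 lay above, and the other knockout libraries below, all vector libraries, and the log2 value was -0.21 without knockout library 2 (edgeR adjusted p = 0.0291) and -0.04 with it. LEO1, a subunit of the PAF elongation complex, had a log2 value of 0.20 without knockout library 2 (edgeR adjusted p = 0.0694) and -0.13 with all libraries, knockout library 2 being at 32.9 CPM and the other 5 at 73.5 to 92.4. In knockout library 2, 56.5% of its summed stranded reads were absent from the unstranded column, against 16.0% to 20.2% in the other 5. On the summed columns that library was at 62.6 CPM and the others at 75.5 to 93.5, and without it LEO1 passed and rose by 0.23 (edgeR adjusted p = 0.0239).

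Of 10 phosphatases and readers, 2 rose and 2 fell without knockout library 2, against 10.2% and 8.88% of all tested genes. PPP1R10, a targeting subunit of protein phosphatase 1, was at 77.6, 79.3 and 76.9 CPM in the vector and 54.0, 16.5 and 44.5 CPM in the knockout libraries. The vector libraries were close together and all knockout libraries lay well below. Its log2 fold change was -1.02 with all libraries (edgeR adjusted p = 0.215), and it fell by 0.67 without knockout library 2 (edgeR adjusted p = 2.57e-05). RPRD1A, which binds the phosphorylated repeats, went from 57.1, 47.2 and 55.4 to 39.7, 27.4 and 37.3 CPM and fell by 0.47 in that fit (edgeR adjusted p = 0.00196, and -0.61, adjusted p = 0.165, with all libraries). The phosphatase gene SSU72, at 311, 341 and 282 CPM in the vector and 376, 681 and 371 CPM in the knockout libraries, rose by 0.26 (edgeR adjusted p = 0.0161), and the phosphatase gene CTDSPL rose by 0.25 (edgeR adjusted p = 0.0435). With all libraries their log2 values were 0.61 and 0.48 (edgeR adjusted p = 0.232 and 0.216). All 4 genes lay on the same side of the vector libraries in all 3 knockout libraries, with knockout library 2 the farthest. They were named for passing without knockout library 2, which largely set the side of knockout libraries 1 and 3 in advance. Among all tested genes the groups did not overlap for 39.4%.

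Of 14 P-TEFb regulators, 3 fell without knockout library 2 and 0 rose, against 8.88% and 10.2% of all tested genes. Among them the super elongation complex genes AFF4, its scaffold, and MLLT3, a chromatin reader, fell by 0.28 and 0.40 (edgeR adjusted p = 0.0446 and 0.0300). With all libraries their log2 values were -0.49 and -0.43 (edgeR adjusted p = 0.248 and 0.196). MLLT3 was at 16.9, 19.4 and 18.9 CPM against 13.3, 12.9 and 14.7 CPM, with knockout library 2 near the others.

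Of 13 genes of other transcriptional CDKs, 1 fell without knockout library 2, against 8.88% of all tested genes. This was MED13L, a subunit of the Mediator kinase module, at 24.6, 17.4 and 26.5 CPM against 17.4, 11.3 and 16.8 CPM (log2 -0.43, edgeR adjusted p = 0.0481, and -0.59, adjusted p = 0.220, with all libraries). CDK8, a kinase of that module, had a log2 value of -0.26 (edgeR adjusted p = 0.0970), and CCNL1, cyclin L1, a partner of CDK11, 0.21 (edgeR adjusted p = 0.117). With all libraries these were -0.42 and -0.01 (edgeR adjusted p = 0.243 and 0.976). Of 6 tested TFIIH core genes 0 passed in edgeR without knockout library 2, against 19.1% of all tested genes (0 at an unadjusted p under 0.05, against 31.7%). The TFIIH helicase genes ERCC2 and ERCC3 had log2 values of -0.17 and 0.17, and GTF2H2, whose near-identical copies make its counts uncertain, one of -0.12 (edgeR adjusted p = 0.228, 0.215 and 0.296). With all libraries the 3 genes were at -0.03, 0.06 and -0.29 (edgeR adjusted p = 0.910, 0.816 and 0.336).

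**Figure D5:**
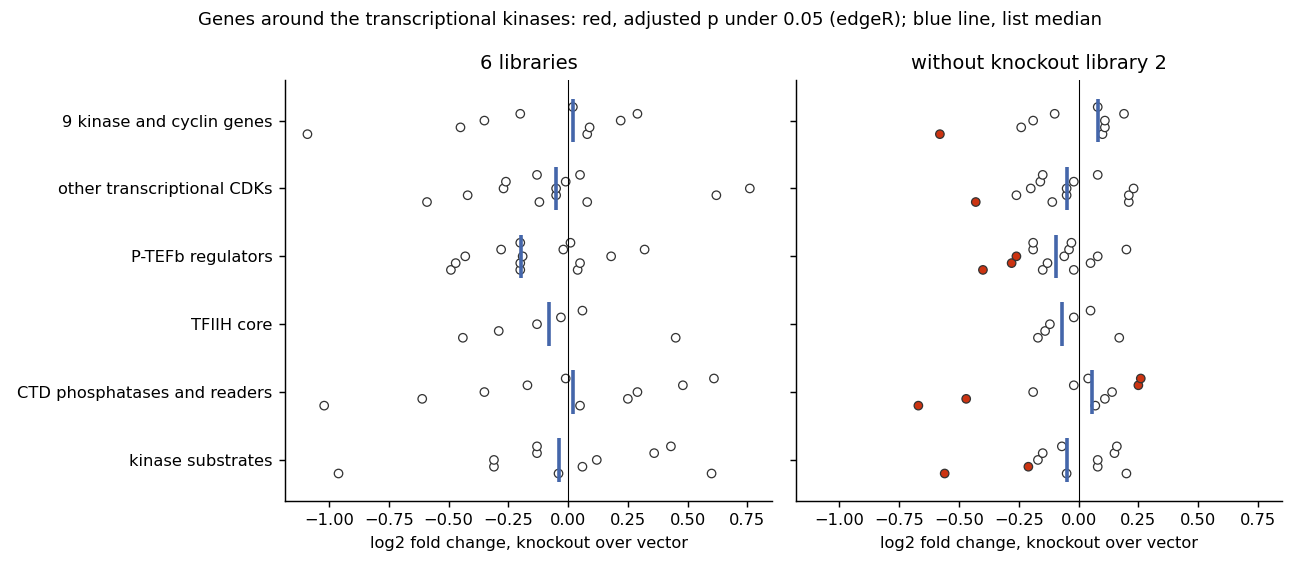
Log2 fold change (edgeR, unstranded counts) of the 9 kinase, cyclin and assembly factor genes and of the tested genes of the 5 lists, with all 6 libraries (left) and without knockout library 2 (right). Each circle is a gene, red circles passed an adjusted p of 0.05 and blue lines are list medians. No circle is red on the left, and the 10 red circles of the 5 lists on the right lie between -0.67 (PPP1R10) and 0.26 (SSU72).

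The neighbours of CDK12, CDK13 and CCNK were examined as the genes nearest on each side. MED1, a Mediator subunit that lies before CDK12 on chromosome 17 (39404285 to 39451286), was at 46.8, 37.8 and 50.7 CPM in the vector and 68.0, 60.8 and 60.9 CPM in the knockout libraries. All 3 knockout libraries lay above all 3 vector libraries, and knockout library 2 lay with the others. Its log2 fold change was 0.49 with all libraries (edgeR adjusted p = 0.179), and without knockout library 2 it rose by 0.51 (edgeR adjusted p = 0.00196). In vector library 1, 26.8% of its summed stranded reads were absent from the unstranded column, and 7.47% in knockout library 2. On the summed columns knockout library 2 was at 54.3 CPM, among the vector libraries at 54.4, 46.4 and 57.4 CPM, so the groups overlapped. The log2 value there was 0.34 (edgeR adjusted p = 0.257) with all libraries and 0.47 (edgeR adjusted p = 0.00046) without knockout library 2. FBXL20, an F-box protein gene on the far side of MED1, had a log2 value of -0.28 (edgeR adjusted p = 0.374), and -0.12 (edgeR adjusted p = 0.518) without knockout library 2.

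CDK13-DT, a transcript divergent from the CDK13 promoter (chromosome 7, 39947522 to 39949755), was at 2.66, 3.14 and 3.46 CPM in the vector and 5.00, 5.98 and 3.77 CPM in the knockout libraries. It was higher in all 3 knockout libraries without passing the test (log2 0.67, edgeR adjusted p = 0.214, and 0.51, edgeR adjusted p = 0.146, without knockout library 2), where CDK13 was lower on average. SETD3 is a methyltransferase gene next to CCNK at lower coordinates (chromosome 14, 99397746 to 99480889). It had a log2 value of -0.02 without knockout library 2 (edgeR adjusted p = 0.872), beside the -0.58 of CCNK in the same counts. With all libraries SETD3 was at -0.14 (edgeR adjusted p = 0.540).

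The protein-coding genes whose pattern was most like that of CDK12 were found among 9762 with a mean of at least 5 CPM, as those with the smallest root mean square difference over the 6 libraries in log2 CPM centred on each gene's vector mean, which compares patterns and not levels. They were GCA at 0.023, FZD3 at 0.043 and NLK at 0.046. For CCNK in the unstranded counts they were MANSC1 at 0.095, ATG16L1 at 0.113 and CEP295 at 0.156, all with 5 or 6 reads in knockout library 2. CEP295 shared with CCNK a large share of reads absent from the unstranded column (62.0% in vector library 1), and its log2 fold change went from -1.18 in the unstranded counts to 0.52 in the summed columns. MANSC1 and ATG16L1 had 1.32% and 0% of such reads in that library, and their values were -0.98 and -0.98 in the unstranded counts and -0.97 and -0.99 in the summed columns.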

How the data were processed

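The deposited files hold raw counts as whole numbers for every gene, in the column layout of STAR: 1 unstranded and 2 stranded columns. FastQC, STAR and GRCh38 are named per the submitters' processing notes; their versions and settings, and the annotation, are not given there. Per the labels' protocols, 1 µg of total RNA per library went into a SMARTer kit after RNeasy extraction. Unmapped, multimapping, unassigned and ambiguous reads stayed out of tests; ambiguous reads were 11.15% to 12.2% of all reads in 5 libraries and 14.37% in knockout library 2.

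The unstranded counts of all 6 libraries were fitted with edgeR 4.0.16 in R 4.3.3 (genes kept by filterByExpr, scaled by TMM, robust quasi-likelihood test), without a block, with Benjamini-Hochberg adjustment over all tested genes. CPM are TMM-scaled, with a prior count of 2 before log2. DESeq2 1.42.0, limma 3.58.1 (voom), other scalings, filters and columns, a replicate block and leaving out each library were alternatives. The sum of the stranded columns, DESeq2 and voom, each without knockout library 2, were added after the data were seen. Only the edgeR fit of all 6 libraries was also run on simulated counts, drawn from its own dispersions and without an outlying library. That run does not check the other fits. Between libraries of 1 group, chi-square per degree of freedom was 3.27 or more, so no files agreed within sampling noise.

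Gene names came from a name table (62672 of 62696 matched) and exons from GENCODE 29; the counts may rest on another annotation. The 9 genes and the lists were chosen with earlier results of these data known. Genes named are the 9, genes that overlap them where reads bear on a value, pathway genes past the threshold with or without knockout library 2 and the 3 with the smallest adjusted p in each list, the 2 nearest tested genes on each side of CDK12, CDK13 and CCNK (the report gives those of most use), and the 3 most alike. Some named items are not reported here.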

Additional observations from a re-analysis of the deposited data

How the results depend on the processing

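With all 6 libraries 0 of the 9 genes, 0 of 54 pathway genes and 94 genes in all passed edgeR's threshold. Leaving out each library in turn gave 0 to 1, 0 to 10 and 4 to 3123, with the highest counts without knockout library 2. Over all genes, library totals alone gave 39, no filter 363, at least 10 counts in every library 60 (CCNK, MANSC1, ATG16L1 and CEP295 then not tested), the first and second stranded columns 57 and 38, DESeq2 980 and a threshold of 0.01 12. DESeq2 called 1 pathway gene. Without knockout library 2, the summed stranded columns gave 0 of the 9, 12 pathway genes and 3794 in all, DESeq2 1, 6 and 2598, and voom 1, 8 and 3055.

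Replicate numbers share only a label: same-numbered libraries deviated together at r = 0.14, 0.19 and 0.08, and vector library 3 reached 0.08 with knockout library 1 too. A replicate block gave 5 genes in all and 0 of the 9. The block with both replicate 2 libraries left out gave 5415 in all, 21 pathway genes and 4 of the 9, CDK13 and CCNK lower and CDK9 and CCNH higher. Calls were common over all genes in that fit. The number of genes tested in it is not given here, so no exact share stands beside the 4 of 9. Its 5415 calls can only be set against the 15783 genes tested with all libraries and the 16339 tested without knockout library 2. With calls so common, the 4 of 9 and the 21 pathway genes are not read as a result about these genes. That fit rests on a pairing that the labels do not give and leaves few libraries to estimate the spread.

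Signs changed as follows, and the cause was not tested. Library totals alone gave log2 values of -0.10 for CDK12, -0.14 for CDK7, -0.08 for MNAT1, -0.10 for ERCC3, -0.03 for MPLKIP, -0.08 for GCA, -0.14 for FZD3 and -0.10 for NLK. The block with both replicate 2 libraries left out gave 0.14 for CCNL1, 0.16 for LEO1, -0.01 for CDK12 and -0.03 for FZD3. The summed, first and second stranded columns gave 0.12, 0.09 and 0.14 for CCNK, 0.52, 0.45 and 0.58 for CEP295 and 0.07, 0.05 and 0.09 for LEO1. The summed columns gave 0.02 for ERCC2 and 0.23 for the ratio of CCNK to its kinases, and the second column 0.17 for ERCC2, -0.02 for CDK7 and -0.12 for GCA. Without knockout library 2 the summed columns, DESeq2 and voom gave 0.20, 0.21 and 0.21 for CCNL1 and 0.23, 0.20 and 0.20 for LEO1, and the summed columns 0.19 for CEP295. Leaving out each library in turn gave -0.02 to 0.14 for CDK12, -0.04 to 0.11 for CDK7, -0.18 to 0.21 for CCNL1, -0.17 to 0.07 for ERCC2, -0.04 to 0.17 for ERCC3, -0.21 to 0.06 for SUPT6H, -0.38 to 0.20 for LEO1, -0.05 to 0.13 for FZD3, -0.04 to 0.15 for NLK and -0.01 to 0.20 for the ratio of MNAT1 to CDK7.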

Other observations

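Reads were also absent from the unstranded column for other genes around these kinases, and which genes overlap them was not looked up. NELFCD, a subunit of the negative elongation factor, had at most 0.056 CPM in any library in the unstranded counts, while the summed stranded columns gave 160, 156 and 150 CPM in the vector and 171, 174 and 170 CPM in the knockout libraries. There the knockout libraries lay above the vector libraries, with a log2 value of 0.13 without knockout library 2 (edgeR adjusted p = 0.181). That sum includes any reads of a gene that shares its exons. HEXIM2, an inhibitor of P-TEFb, had 93.7% of its summed reads absent from the unstranded column in the vector libraries, LARP7, which binds the RNA that holds P-TEFb inactive, 48.0%, and EAF1, an ELL-associated factor, 40.9%. GTF2H4, a TFIIH core subunit, is listed at 0 in all libraries and columns.

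Over all genes tested both ways without knockout library 2, 3120 were called from the unstranded counts. Of these, 2883 were also called from the summed columns and 237 (7.6%) were not. The summed columns called 3794 of the 18429 genes tested there, so they also made calls that the unstranded counts did not. Where at most 1% of a gene's summed reads were absent from the unstranded column, 24 of 2045 calls (1.17%) were lost, and where over 50% were, as for CCNK, 102 of 199 (51.3%).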
